A study of Mus musculus with 11 samples.

Results

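The proteasome genes described here were the protein-coding genes whose symbols begin with Psma, Psmb, Psmc, Psmd, Psme, Psmf or Psmg and a number, without the immunoproteasome genes Psmb8, Psmb9 and Psmb10. Of the 28222 genes in the count table, 44 met this rule, and 47 did so in the annotation. Psmb11, Psme2b and Psmg3 were not analysed here. The members were divided into the 20S core with 14 genes, the 19S cap with 17 genes, the activators with 4 genes, and 9 other members, which were the inhibitor Psmf1, 6 assembly chaperones (Psmd5, Psmd9, Psmd10, Psmg1, Psmg2, Psmg4), the testis form Psma8, and Psmc3ip. Psmc3ip is a meiotic recombination factor that shares the symbol pattern but is not a proteasome subunit, and it was kept out of all classes. The 14 core and 17 cap genes are referred to as the 31 subunits.

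Polyadenylated RNA was sequenced from mesenchymal stem cells (MSCs, bone stroma with the capacity to become osteoblasts or adipocytes), which were grown from young mice of 3 to 5 months and old mice of 18 to 22 months, in αMEM medium and always under 2% oxygen. According to the labels the 11 libraries belonged to 3 batches named by letters, and what distinguished the batches is not given: A young (n = 4), B young (n = 2), B old (n = 2) and C old (n = 3). Age could therefore be separated from batch only within batch B, and in the comparison of C old with A young age and batch cannot be told apart. The methods of the study describe wild-type C57BL/6N males and outgrowth of cells from hind limb bone followed by sorting, for an oxygen comparison in young mice. It is not stated whether each library came from its own mouse or culture, so that the p-values measure the spread between these libraries, which may be technical.

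The proteasome degrades proteins that carry ubiquitin chains. Its 20S core is a barrel of stacked rings, in which the outer rings of alpha subunits gate the entrance and the inner rings of beta subunits hold the proteolytic sites. The 19S cap binds ubiquitylated substrates, removes the ubiquitin, and unfolds and translocates the substrate with a ring of ATPases. The activators Psme1, Psme2, Psme3 and Psme4 can dock to the core in place of the cap. Subunit genes are transcribed together in many cell types, and the transcription factor Nfe2l1, which binds antioxidant response elements, raises them when proteasome activity is low. In mesenchymal stem cells, as in other long-lived cells, this machinery is studied in connection with protein quality control during ageing.

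Promoter windows from 250 bases before to 50 bases after the start of each gene were taken from RefSeq (GRCm38.p6) for 36 of the 44 members, in 39 windows. Psmg2 and Psma8 were left out of the member windows. The letters TGACNNNGC, which form the core of the antioxidant response element, were searched on both strands and were present in 15.4% of the member windows and in 12.4% of all 32851 windows. The letters CCAAT were present in 33.3% of the member windows and in 37.4% of all windows. Both shares were therefore near those of promoters in general. The core of the element was found in the windows of Psmb5, Psmb6, Psmc6, Psmd12, Psmd9 and Psme4. Shown are 150 bases upstream of the annotated gene of Psmb5 (chr14:54618023-54618172, minus strand) and Psmb6 (chr11:70525207-70525356, plus strand), which encode catalytic subunits and hold that core, and of Psma3 (chr12:70974471-70974620, plus strand), an alpha subunit with a CCAAT box. Capitals mark the motif, and each sequence runs 5′ to 3′ on the transcribed strand.
Psmb5: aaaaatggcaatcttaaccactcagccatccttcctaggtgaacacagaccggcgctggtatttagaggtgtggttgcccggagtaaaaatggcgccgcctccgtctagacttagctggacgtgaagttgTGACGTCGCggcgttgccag
Psmb6: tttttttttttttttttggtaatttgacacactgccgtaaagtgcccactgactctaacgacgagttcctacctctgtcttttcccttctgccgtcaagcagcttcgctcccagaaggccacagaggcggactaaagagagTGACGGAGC
Psma3: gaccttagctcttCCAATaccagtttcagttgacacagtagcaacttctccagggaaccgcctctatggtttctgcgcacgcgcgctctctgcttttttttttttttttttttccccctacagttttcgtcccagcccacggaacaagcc
A match gives the letters in this window and does not show that a factor binds there.

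Total counts per library lay between 11969336 and 20315934, and a floor of 3 counts corresponded to 0.156 to 0.253 CPM (counts scaled to library size with TMM factors, which correct the totals for differences in composition). Markers of MSCs were detected in every group with summed levels of 24043 to 66100 CPM, and 0 of the 11 were at 0 in a whole group. Markers of leukocytes were present as well, with 851 to 1951 CPM in A young, 466 to 982 in B young, 984 to 1387 in B old and 185 to 219 in C old, and 0 of these 16 markers were at 0 in a whole group. Reads from mitochondrial genes made up 0.711% to 3.74% of the counts. In bulk libraries a smaller number of cells of a type and less RNA per cell cannot be told apart. The replicates of A young, B old and C old lay close to each other for the 31 subunits, with median absolute log2 differences between libraries of 0.04 to 0.22, whereas the B young libraries differed by 0.43.

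All 31 subunits were expressed well above the detection limit in all libraries, and the 44 members together took 0.283% to 0.462% of the counts. Compared per length of transcript (CPM per kilobase), the core genes stood above the cap genes. The median of the 14 core genes was 75.3 CPM per kilobase in A young, 87.9 in B young, 113 in B old and 48.6 in C old. The corresponding medians of the 17 cap genes were 47.3, 58.9, 64.9 and 36.9. Psmb4, a structural beta subunit, had the highest level per kilobase of the longest transcript in the core in all 4 groups. Per kilobase of the union of exons Psmb5 stood above it in all 4 groups, with 132, 131, 149 and 50.4 against 93.7, 98.9, 114 and 43.9 CPM per kilobase. Per longest transcript, within a group the core genes spanned 3.39-fold to 4.01-fold. In the cap, Psmd2, the large scaffold protein that receives ubiquitin-like shuttle factors, was highest per kilobase in all 4 groups by either length. The ratio of the mean level of the core genes to the mean level of the cap genes, both per kilobase, was 1.65 ± 0.12 in A young (SD, n = 4), 1.55 ± 0.13 in B young (SD, n = 2), 1.73 ± 0.02 in B old (SD, n = 2) and 1.16 ± 0.02 in C old (SD, n = 3). The C old libraries had ratios of 1.14 to 1.17, whereas the other 8 libraries lay between 1.46 and 1.78, so that the core was lower relative to the cap in C old without overlap. This ratio was not tested. Core genes have shorter transcripts than cap genes by class median, and over all genes short transcripts were lower in C old than in B old (described below). Division by length does not remove such a trend between libraries, and its part in the ratio was not tested.

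The summed level of the 7 beta genes was 775, 665, 823 and 824 CPM in A young, 715 and 981 CPM in B young, 996 and 1001 CPM in B old, and 392, 366 and 362 CPM in C old. The C old libraries were thus the lowest and the B old libraries the highest, and B young replicate 1 lay within the A young range, while replicate 2 lay just below B old. For the 7 alpha genes the sums were 644, 557, 643 and 672 CPM in A young, 607 and 901 CPM in B young, 956 and 944 CPM in B old, and 452, 430.5 and 427 CPM in C old. The order of the groups was the same as for the beta genes. The 6 ATPases of the cap summed to 564, 495, 530 and 528 CPM in A young, 537 and 702 CPM in B young, 685 and 678 CPM in B old, and 482, 446 and 463 CPM in C old, where the gap between C old and A young was narrow. The 11 non-ATPase genes of the cap ranged from 1068 to 1285 CPM in A young, from 1432 to 1486 CPM in B old and from 878 to 925 CPM in C old, and were 1238 and 1452 CPM in B young. The activators had the narrowest range of the 5 classes, with 257 to 288 CPM in A young, 256 to 266 CPM in B young, 263 to 278 CPM in B old and 203 to 209 CPM in C old.

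**Figure D1:**
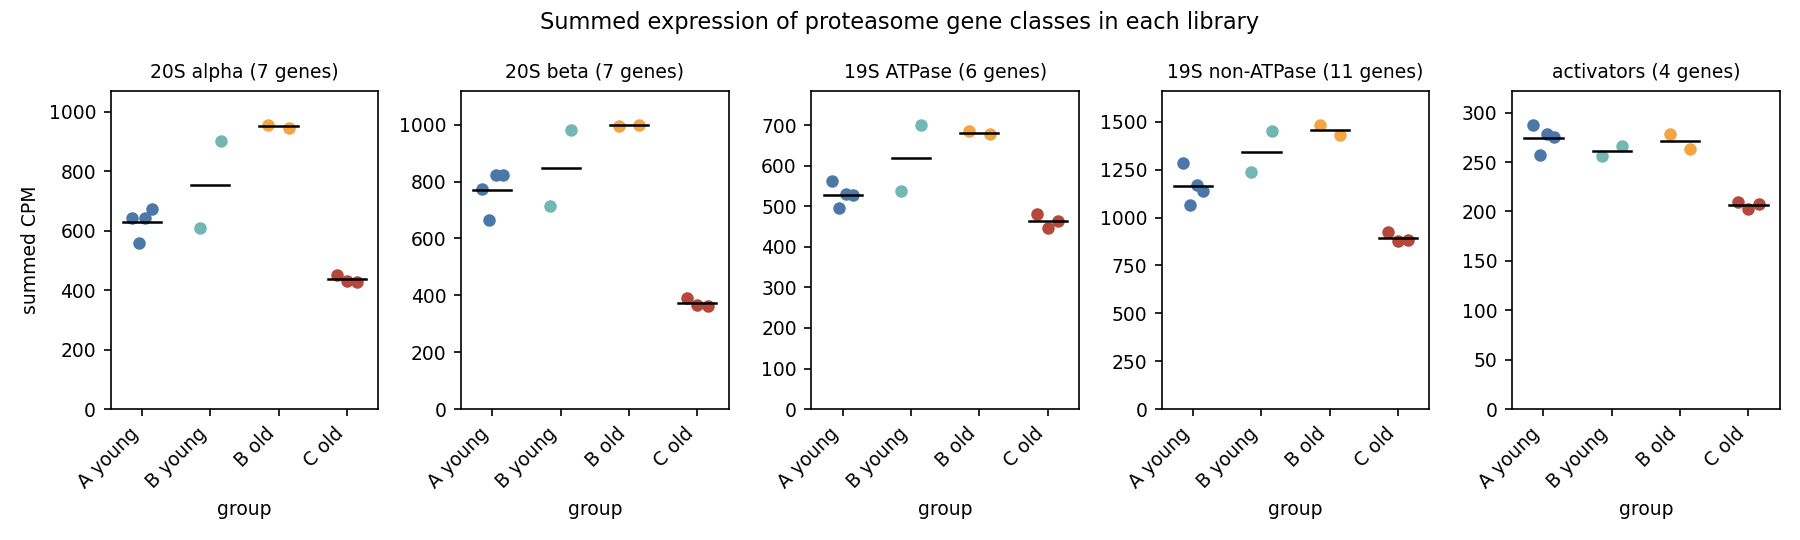
Summed CPM (vertical axis, from 0) of the 5 proteasome gene classes in each library (points) by group (horizontal axis), with the group mean as a line. C old lies lowest in all classes, and the B young libraries are far apart in the 4 subunit classes, for example at 715 and 981 CPM for the beta genes.

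The B young libraries are described separately, because they differed from each other in most subunits. B young replicate 1 lay within the range of the A young libraries for 19 of the 31 subunits, above it for 8 and below it for 4. B young replicate 2 lay above the A young range for 27 of 31 subunits, and relative to the B old libraries it was lower for 13, between them for 8 and higher for 10. Replicate 1 was lower than both B old libraries for 29 of 31 subunits. The shares of all genes in these positions were not counted, so that the counts may not be particular to the subunits. Both comparisons that use the B young libraries, by age within batch B and between batches A and B, are therefore given with each of them left out.

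**Figure D2:**
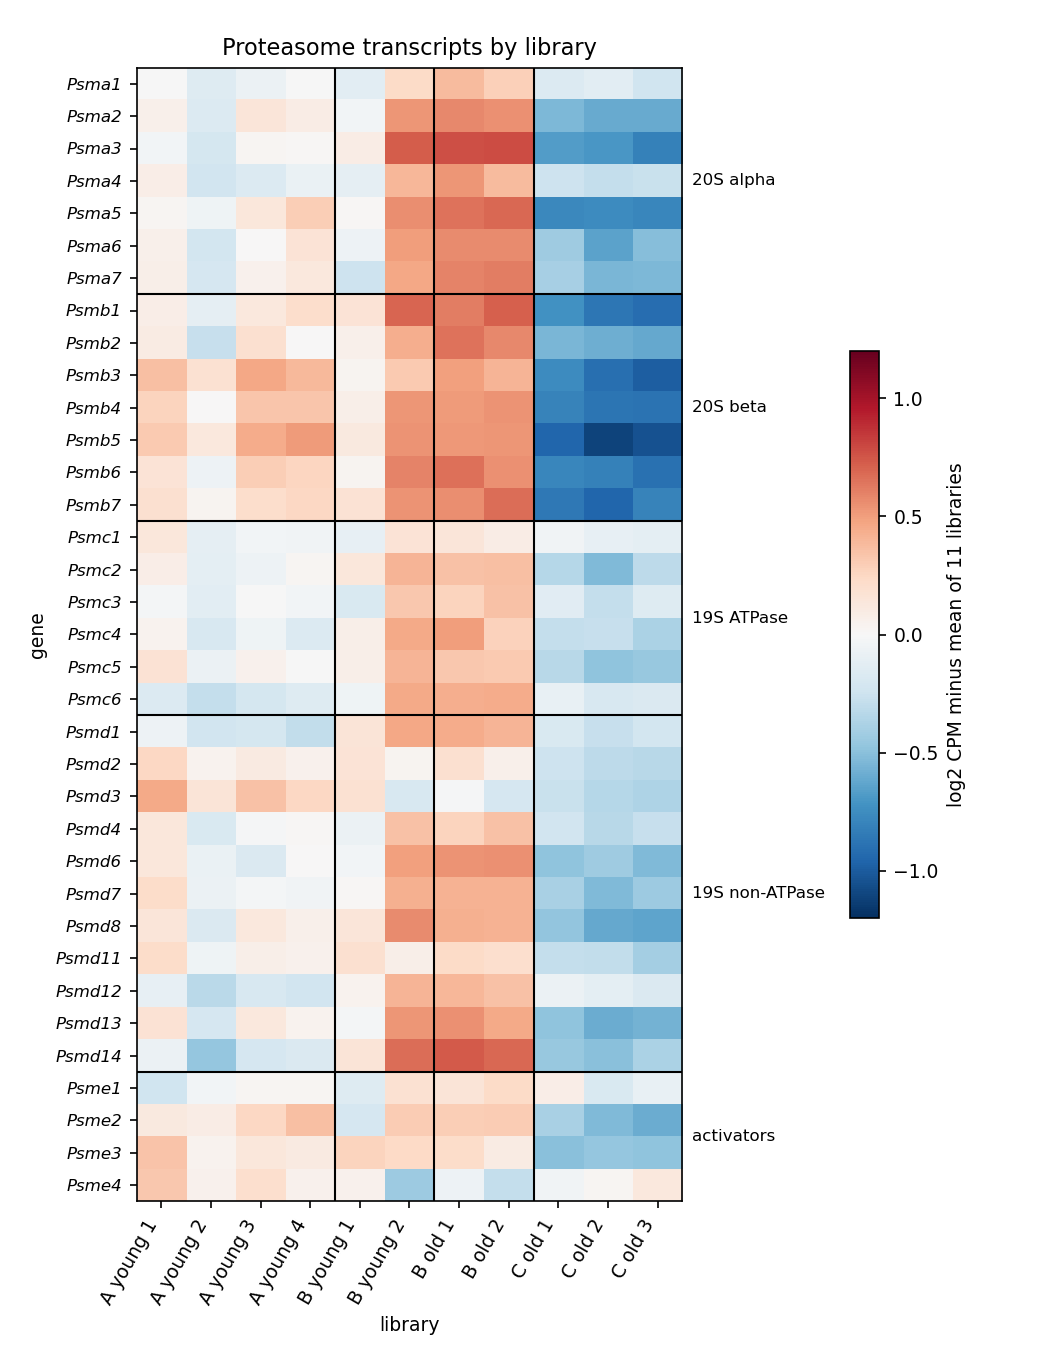
Heat map of log2 CPM of the 31 subunits and 4 activators (rows, by class) in the 11 libraries (columns), as the difference from the mean of each gene over all libraries. The C old columns are blue in nearly all rows, most deeply in the beta genes, and B young 2 has the colours of the B old columns.

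The first question was whether subunit expression differed with age within batch B, the only batch with both ages. Most subunits were somewhat higher in old MSCs, with a median log2 fold change of 0.20 over the 44 members and 0.22 over the 31 subunits, against 0.00 over all 16132 genes tested, but 0 of the 44 members passed the edgeR quasi-likelihood test at an adjusted p of 0.05. Over all genes 2.23% passed in either direction. At an unadjusted edgeR p below 0.05 there were 6 of the 44 members, against 2597 of all 16132 genes. These 6 were all of the core and all higher in old cells (Psma1, Psma3, Psma5, Psma7, Psmb2, Psmb3). Limma-trend and DESeq2 called 0 members. The medians were 0.32 for the alpha genes, 0.25 for the beta genes, 0.10 for the ATPases, 0.14 for the non-ATPase cap genes and 0.09 for the activators. Both old libraries lay above both young libraries for 14 of 44 members, or for 12 of 31 subunits, compared with 19.2% of all genes. This result depended on which young library was used. Without B young replicate 2, 18 members were higher in old cells and 0 lower, against 4.41% of all genes higher, and the median was 0.41; these were all 7 alpha genes, 5 of 7 beta genes, 2 of 6 ATPases, 3 of 11 non-ATPase cap genes and Psme2. Without B young replicate 1, 0 members passed, none had an unadjusted p below 0.05, and the median was 0.00. The summed leukocyte markers were higher in both B old than in both B young libraries, with 16 of 16 genes positive and 0 past the threshold. The osteoblast markers summed to 328 to 348 CPM in B old and 169 to 183 CPM in B young, with 6 of 6 positive and 1 past the threshold. All 10 proliferation markers were positive, of which 0 passed by edgeR and 7 had an unadjusted p below 0.05, and 2 of 11 MSC markers were lower in B old. The part of these differences in the result was not tested.

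The comparison of batch B with batch A within young MSCs asked how far batch alone moved these genes. Of the 44 members 5 were higher in B young and 0 lower, which is 5 of 44 against 9.39% of all genes higher in B. The called members were Psmd14, Psmd1, Psmd12, Psma3 and Psmc6, with a median over all members of 0.20. The calls again differed with the B young library used. Without B young replicate 1, 23 members were higher and 2 lower (Psmd3 and Psme4), with a median of 0.40, against 12.8% of all genes higher. Without B young replicate 2 the median was 0.00, with 22 members positive and 22 negative. Leaving out 1 A young library gave 1 to 3 calls (3 without replicate 1, 2 without replicate 2, 1 without replicate 3, 2 without replicate 4), all higher in B. In this comparison 7 of 16 leukocyte and 9 of 10 proliferation markers were lower in B young, and their part in the result was not tested.

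The comparison of old libraries from batch C with those from batch B gave the largest median difference. The proteasome genes were lower in C old, where 40 of the 44 members fell and 1, Psme4, rose, with 32.6% of all 15651 genes tested lower in C. All 31 subunits fell, by a median of 0.99 on the log2 scale, from Psmc1 at −0.21 to Psmb5 at −1.57. The beta genes had the largest median decrease (−1.44), followed by the alpha genes (−1.10), the non-ATPase cap genes (−0.66), the ATPases (−0.65) and the activators (−0.45), whereas the median of all genes was 0.02. The members that did not pass were Psmg2, Psma8 and Psmc3ip. For all 31 subunits the C old libraries lay below the B old libraries without overlap, and for 24 of 31 they were below all 8 other libraries. The shares of all genes with these separations were not counted, so that the 2 counts cannot be set against genes in general. Scaling by total counts in place of TMM factors shifted the median of all genes by 0.19 upwards in this comparison, and left 37 members lower and 2 higher (Psme4 and Psmc3ip). Of all 15651 genes 3826 were lower and 6470 higher under that scaling. All 16 leukocyte markers were lower in C old, and 7 of 10 proliferation markers, 4 of 6 osteoblast markers and 2 of 3 adipocyte markers tested were higher, and their part in the result was not tested.

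The difference between batches C and B depended on transcript length across all genes, with a Spearman rho of 0.29 over 15625 genes, so that short transcripts were lower in C old. This is a description across genes, which are not independent replicates. Core genes have short transcripts, with a median of 899 bases in the beta class and 1201 in the alpha class, compared with 1688 in the ATPases and 1983 in the non-ATPase cap genes. When genes were divided by length into 10 classes of equal size, the shortest class (up to 1001 bases) had a median of −0.68 and the longest class of 0.52. All 31 subunits lay below the median of their own length class, by a median of 0.67 on the log2 scale, and 19 lay below its lower quartile. A fit with offsets for length and GC content, which removed the trend over all genes (rho 0.02), still gave 38 members lower and 1 higher (Psmc3ip), against 36.7% of all genes lower. The medians were then −1.05 for the beta genes, −0.79 for the alpha genes, −0.47 for the ATPases, −0.69 for the non-ATPase cap genes and −0.23 for the activators. Psmc1 was the subunit that no longer passed (log2 fold change −0.03, edgeR adjusted p = 0.70), and the difference between beta genes and cap genes narrowed.

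**Figure D3:**
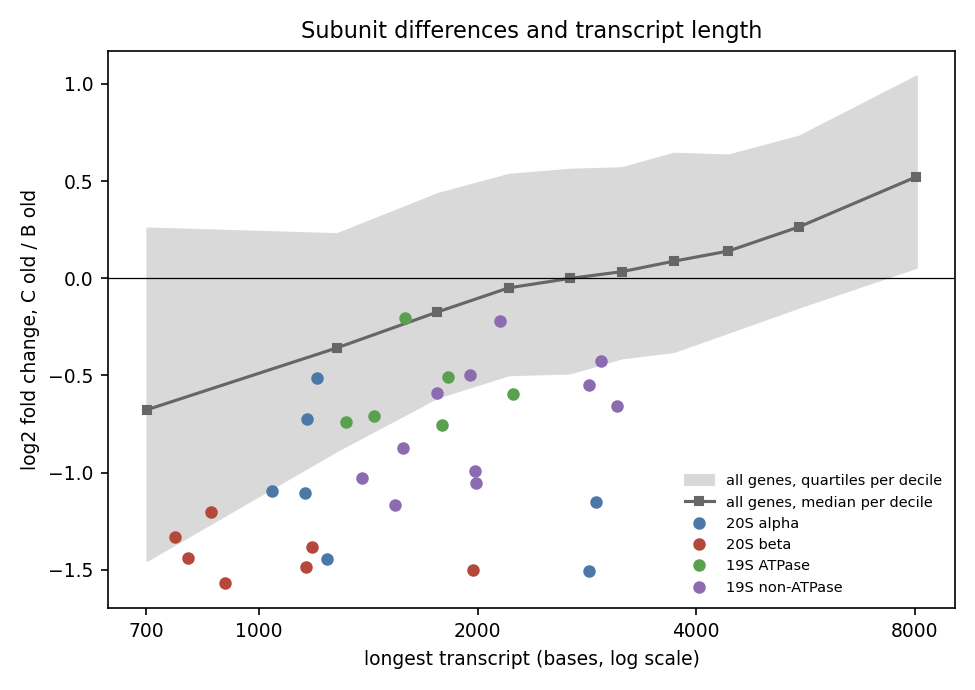
Log2 fold change of C old against B old (vertical axis) of the 31 subunits (points, coloured by class) against the length of the longest transcript (horizontal axis, log scale), with the median (line) and quartiles (grey) of all genes in 10 length classes. Each subunit lies below the median of its own length class. The beta genes have values of −1.20 to −1.57 at lengths of 766 to 1970 bases, with a median length of 899 bases.

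**Figure D4:**
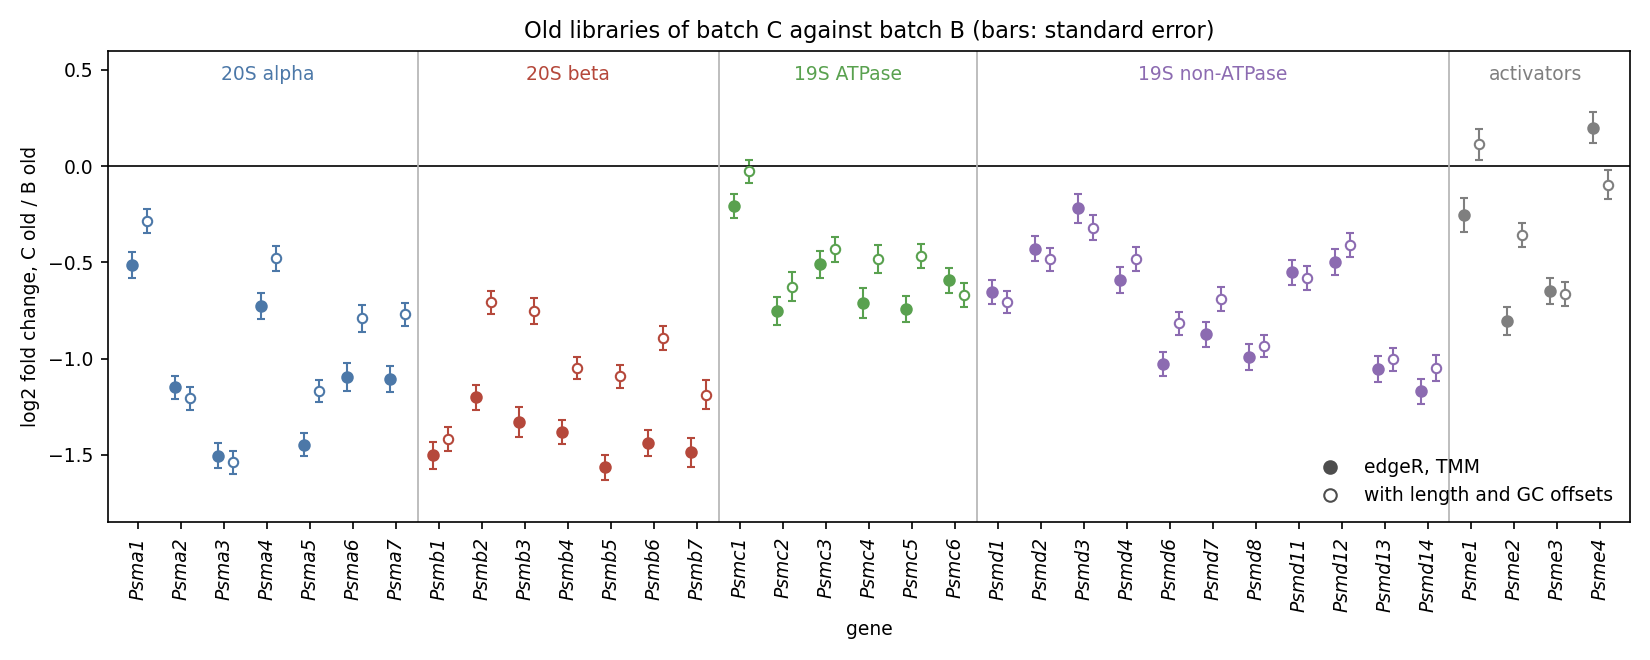
Log2 fold change of C old against B old (vertical axis) for the 31 subunits and 4 activators (horizontal axis) in the edgeR fit with TMM factors (filled points) and with length and GC offsets (open points). Bars are standard errors. With offsets Psmb5 moves from −1.57 to −1.09, and Psmd14 from −1.17 to −1.05.

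C old was also compared with A young, and most members were again lower in C old. Of the 44 members 27 fell and 0 rose, with 31.9% of all genes lower, and the median was −0.38 against 0.02 over all genes. All 7 beta genes fell (median −0.98), as did 5 of 7 alpha genes (−0.47), 8 of 11 non-ATPase cap genes (−0.36), 2 of 4 activators (−0.33) and 2 of 6 ATPases (−0.13). With length and GC offsets 35 members were lower and 1 higher (Psme1), against 36.8% of all genes lower, including all 14 core genes. Scaling by total counts shifted the median of all genes by 0.29 upwards and changed the split to 17 members lower, against 18.2% of all genes, and 8 higher, against 48% of all genes. Under that scaling all 7 beta genes remained lower, while the ATPases had a median of 0.16 with 3 of 6 higher. This scaling moved all genes alike, and the median of all genes was then 0.31, above that of the ATPases. All 16 leukocyte markers were lower in C old, whereas 5 of 6 osteoblast markers (median 1.86) and all 3 adipocyte markers tested (median 3.21) were higher. Of the proliferation markers 4 of 10 were higher and 1 lower, and of the MSC markers 4 of 11 were higher and 5 lower. The part of these markers in the result was not tested.

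Among the beta genes, those with catalytic sites were followed in every library. Psmb5, the chymotrypsin-like subunit, had 115, 101, 126 and 132 CPM in A young, 100.4 and 135 CPM in B young, 133 and 134 CPM in B old, and 48.0, 43.0 and 44.9 CPM in C old. The C old libraries lay far below every other library, whereas A young, B young and B old overlapped or adjoined each other. The difference of C old from B old was −1.57 ± 0.07 (log2 fold change ± SE, edgeR adjusted p = 4.46e-09), so that the level fell by 66.2%, and that from A young was −1.33 ± 0.10 (adjusted p = 1.96e-07). Psmb6, the caspase-like subunit, was measured at 109, 93.7, 120.1 and 118 CPM in A young, 100.2 and 148 CPM in B young, 155 and 143 CPM in B old, and 57.0, 55.8 and 52.8 CPM in C old. Psmb7, the trypsin-like subunit, had 49.1, 44.1, 49.7 and 51.0 CPM in A young, 48.5 and 62.5 CPM in B young, 63.2 and 68.4 CPM in B old, and 23.7, 22.3 and 24.7 CPM in C old. Both followed the pattern of Psmb5, with C old apart from all other libraries. Relative to B old, Psmb6 fell by 1.44 and Psmb7 by 1.49 on the log2 scale (edgeR adjusted p = 8.69e-09 and 1.69e-08), and relative to A young by 0.94 and 0.98 (adjusted p = 1.86e-06 and 5.60e-07). With length and GC offsets the differences of Psmb5, Psmb6 and Psmb7 from B old were −1.09, −0.89 and −1.19. Psmb3, a structural beta subunit, had 95.6, 84.6, 103 and 97.9 CPM in A young, 76.3 and 92.9 CPM in B young, 105 and 98.9 CPM in B old, and 44.3, 39.8 and 37.5 CPM in C old. It was the only beta gene with a negative difference between B and A young (−0.15 ± 0.13, edgeR adjusted p = 0.45), and it fell by 1.17 from A young to C old (adjusted p = 2.53e-07). With age in batch B the catalytic genes changed by 0.19 ± 0.14 (Psmb5), 0.27 ± 0.16 (Psmb6) and 0.25 ± 0.12 (Psmb7), which did not pass (edgeR adjusted p = 0.55, 0.42 and 0.34).

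The alpha genes form the gated outer rings of the core. Psma3 had 116, 103, 121 and 120.3 CPM in A young, 127 and 197 CPM in B young, 204 and 204 CPM in B old, and 74.9, 73.3 and 68.0 CPM in C old. All 4 batch B libraries were above all others, and it was the only core gene called between batches B and A (0.51 ± 0.16, edgeR adjusted p = 0.042), a call that was lost with length and GC offsets (0.18, adjusted p = 0.38). In C old its level fell by 64.7% relative to B old (adjusted p = 4.91e-09). Psma5 had 91.1, 86.6, 98.6 and 110.4 CPM in A young, 90.7 and 132 CPM in B young, 141 and 145 CPM in B old, and 52.7, 53.1 and 52.3 CPM in C old, and fell by 1.45 ± 0.06 in C old relative to B old (edgeR adjusted p = 3.93e-09). Its B young libraries again lay apart, one within A young and the other near B old. Psma7 was the alpha gene with the largest age difference in batch B (0.46 ± 0.17, edgeR adjusted p = 0.19), with 67.7 and 111 CPM in B young and 122 and 123 CPM in B old. Psma1 and Psma4 were the alpha genes that did not pass between C old and A young (−0.06 and −0.12). Of the 44 members 19 overlap another gene, 8 of them on the same strand and 16 on the opposite strand, and it is not stated whether strand was used in counting, so that reads can be shared in such pairs. Of the members described with their values, this applies to Psma3, Psma5, Psmb5, Psmb7, Psmd1, Psmd3, Psmd12, Psmd14, Psme1 and Psme4.

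In the cap, the ATPases Psmc1 to Psmc6 form the ring that unfolds substrates. Psmc1 was the most even subunit between batches C and B, with 111, 93.4, 98.7 and 97.8 CPM in A young, 94.2 and 113 CPM in B young, 111 and 107 CPM in B old, and 98.0, 94.0 and 92.9 CPM in C old. The C old libraries overlapped A young and lay just below B old (−0.21 ± 0.06, edgeR adjusted p = 0.013). Psmc6 had 74.99, 68.8, 72.2 and 75.4 CPM in A young, 80.7 and 115 CPM in B young, 113 and 114 CPM in B old, and 78.7, 73.6 and 74.3 CPM in C old. It was called between batches B and A (0.44 ± 0.14, edgeR adjusted p = 0.045) and between C and B (−0.59 ± 0.06, adjusted p = 5.77e-06), while C old and A young overlapped (0.11 ± 0.07, adjusted p = 0.16). With length and GC offsets the last difference became −0.65 and passed, and that between B and A young became −0.08 and did not.

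Psmd14, the deubiquitinase of the lid that releases ubiquitin from substrates, had the largest difference of the 31 subunits between the young batches. It had 73.7, 56.3, 67.5 and 68.8 CPM in A young, 86.3 and 124 CPM in B young, 129.6 and 126 CPM in B old, and 56.6, 54.6 and 59.6 CPM in C old. All 4 batch B libraries lay above all libraries of the other batches. The difference was 0.68 ± 0.15 between B and A young (edgeR adjusted p = 0.012), −1.17 ± 0.06 between C and B old (adjusted p = 2.85e-08) and −0.17 ± 0.09 between C old and A young (adjusted p = 0.11). With length and GC offsets the last difference became −0.46 and passed (edgeR adjusted p = 5.30e-04). Psmd1, a scaffold of the base, had 141, 126, 127 and 119 CPM in A young, 164 and 203 CPM in B young, 200.3 and 195 CPM in B old, and 129, 122 and 127 CPM in C old. Psmd12, a lid subunit, had 48.7, 41.9, 45.7 and 44.7 CPM in A young, 53.8 and 69.3 CPM in B young, 69.0 and 66.9 CPM in B old, and 50.0, 48.4 and 46.3 CPM in C old. Both were higher in all batch B libraries than in any other library, and C old overlapped A young. Between B and A young they rose by 0.54 and 0.47 (edgeR adjusted p = 0.015 and 0.028), and between C and B old they fell by 0.66 and 0.50 (adjusted p = 2.10e-06 and 4.25e-05). The calls of Psmd14, Psmd1 and Psmd12 between B and A young were kept with length and GC offsets (0.42, 0.45 and 0.36) and lost without B young replicate 2 (0.39, 0.37 and 0.27). The call of Psmd12 was also lost without A young replicate 2, 3 or 4 (0.43, 0.47 and 0.46) and that of Psmd1 without A young replicate 3 (0.53), whereas Psmd14 passed between C old and A young without A young replicate 2 (−0.25, edgeR adjusted p = 0.0079). Psmd3, also a lid subunit, was highest in A young, with 118, 95.9, 110.4 and 103 CPM in A young, 97.9 and 75.7 CPM in B young, 85.2 and 74.8 CPM in B old, and 71.9, 68.1 and 66.6 CPM in C old. It was the only subunit with a negative age difference in batch B (−0.12 ± 0.13, edgeR adjusted p = 0.70), and it fell by 0.57 from A young to C old (adjusted p = 4.14e-05).

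Of the 4 activators 3 fell and 1 rose in C old relative to B old. Psme1 and Psme2 together form a ring that is induced by interferon gamma. Psme1 had 30.1, 34.7, 35.9 and 35.9 CPM in A young, 31.8 and 40.1 CPM in B young, 39.5 and 41.5 CPM in B old, and 37.4, 31.2 and 33.4 CPM in C old. C old lay below B old (−0.26 ± 0.09, edgeR adjusted p = 0.024), a difference that turned to 0.11 with length and GC offsets (adjusted p = 0.25). Psme2 had 70.1, 68.8, 76.5 and 82.7 CPM in A young, 56.1 and 79.8 CPM in B young, 79.3 and 79.6 CPM in B old, and 49.3, 44.6 and 42.9 CPM in C old, and C old was below all other libraries (−0.80 ± 0.07 against B old, edgeR adjusted p = 1.57e-06, and −0.36 with length and GC offsets). Psme3, the nuclear activator, had 105, 84.7, 90.2 and 88.4 CPM in A young, 99.1 and 97.2 CPM in B young, 95.9 and 88.0 CPM in B old, and 58.1, 59.7 and 58.7 CPM in C old. Its A and B libraries overlapped, and it fell in C old by 0.65 relative to B old (edgeR adjusted p = 4.01e-06) and by 0.59 relative to A young (adjusted p = 3.43e-05). Psme4, a single-chain activator with a long transcript, had 83.2, 68.7, 76.2 and 68.5 CPM in A young, 68.7 and 49.1 CPM in B young, 63.5 and 54.4 CPM in B old, and 64.6, 67.2 and 72.2 CPM in C old. It was the only member called higher in C old than in B old (0.20 ± 0.08, edgeR adjusted p = 0.0496), a difference that turned to −0.10 with length and GC offsets (adjusted p = 0.30). The calls of Psme1 and Psme4 between C and B old did not hold without B old replicate 2 (−0.22 and 0.09), C old replicate 2 (−0.19 and 0.22) or C old replicate 3 (−0.24 and 0.16). The difference of Psme4 from A young was −0.07 (adjusted p = 0.48), and it became −0.47 with the offsets and 0.23 with total counts, each passing, where the median of all genes was 0.31 with total counts.

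Psmf1, an inhibitor of the core, was highest in A young and lowest in C old. It had 42.1, 41.6, 41.5 and 45.9 CPM in A young, 37.5 and 32.5 CPM in B young, 28.8 and 30.6 CPM in B old, and 22.9, 20.1 and 21.6 CPM in C old, and the groups did not overlap. C old was lower than A young by 0.93 ± 0.08 on the log2 scale (edgeR adjusted p = 9.31e-07) and lower than B old by 0.47 ± 0.09 (adjusted p = 7.59e-04). The age difference in batch B was −0.24 ± 0.12 and did not pass (adjusted p = 0.34). Of the 6 assembly chaperones, which build the base and the alpha ring, 5 fell in C old relative to B old and 2 relative to A young (Psmg4 and Psmd9). Psmg4, an alpha ring chaperone, had 7.86, 5.49, 8.998 and 9.18 CPM in A young, 4.48 and 7.28 CPM in B young, 8.22 and 7.95 CPM in B old, and 3.35, 2.68 and 2.90 CPM in C old. All its C old libraries were below all others, and the decrease relative to B old was 1.44 ± 0.18 (edgeR adjusted p = 2.23e-05), or 0.73 with length and GC offsets. Psma8 was near the detection limit, with 0.422 to 2.36 CPM, and Psmc3ip had 1.09 to 4.04 CPM. Neither passed in any of the 4 comparisons with TMM factors.

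The 2 contrasts of old with young MSCs, within batch B and between C old and A young, compare different libraries, and their values can be set side by side. The age model also used the A young and C old libraries for its filter, scaling factors and spread. Its standard errors are therefore not separate from those libraries. For 27 of the 31 subunits the signs were opposite, higher in B old than in B young and lower in C old than in A young. The share of all genes with opposite signs was not counted. In the shortest length class of all genes the medians were opposite as well, with 0.14 by age in batch B and −0.46 between C old and A young. The next class had 0.09 and −0.20. Across the subunits the log2 fold changes had a Pearson correlation of −0.20 and a Spearman correlation of −0.24, as a description over genes that share libraries. The signs depended on a library and on the scaling, as without B young replicate 1 the age difference was positive for 16 subunits and negative for 15, and with total counts 10 of 31 were positive between C old and A young. In batch B 0 subunits passed, and in the other contrast age and batch cannot be told apart. The remaining genes were Psmd3, negative in both, and Psmc6, Psmd1 and Psmd12, positive in both without passing in either.

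**Figure D5:**
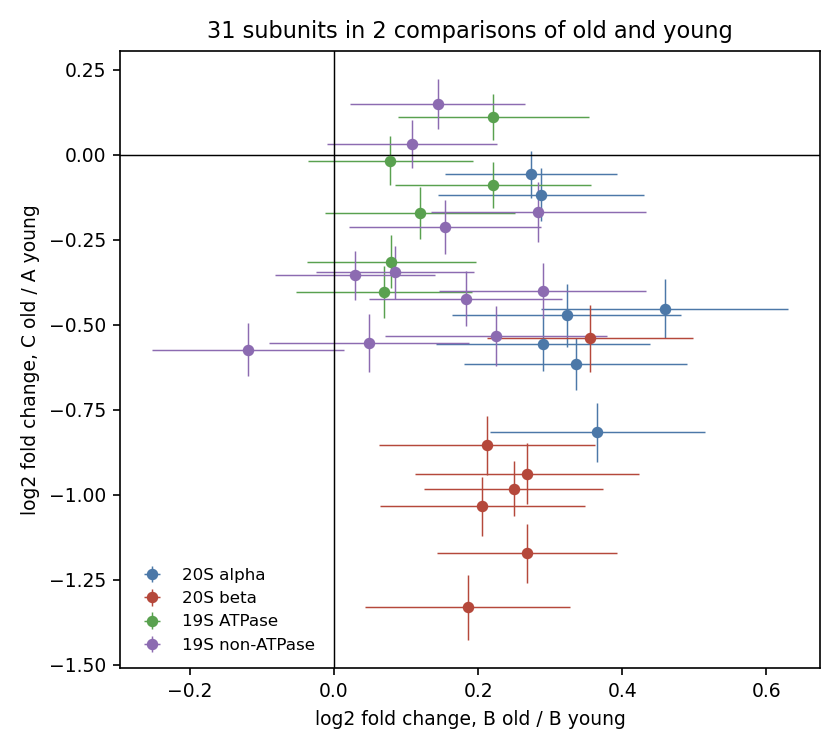
Log2 fold change of the 31 subunits with age in batch B (horizontal axis) and between C old and A young (vertical axis), coloured by class, with bars for standard errors. Of the points 27 lie in quadrants of opposite sign with all libraries and TMM factors, and the beta genes are lowest on the vertical axis, from −0.54 to −1.33.

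The immunoproteasome genes, which replace the catalytic beta subunits in immune and interferon-stimulated cells and were not part of the rule, were measured for comparison. Psmb8 had 4.54, 6.58, 6.93 and 8.12 CPM in A young, 3.18 and 3.67 CPM in B young, 8.15 and 7.48 CPM in B old, and 3.59, 3.08 and 4.35 CPM in C old. It was higher with age in batch B without overlap (1.19 ± 0.26, edgeR adjusted p = 0.024), and so was Psmb9 (1.44 ± 0.35, adjusted p = 0.041). Psmb10 did not pass (0.48, from 8.91 and 12.9 CPM to 15.2 and 15.1 CPM). Without B young replicate 1 neither passed, with log2 fold changes of a similar size (median of the 3 genes 1.09, highest 1.93 for Psmb9). All 16 leukocyte markers, among them Ptprc with 15.6 and 7.49 CPM in B young and 22.2 and 17.6 CPM in B old, were positive in the same comparison, as were 12 of 12 interferon genes, of which 1, Ifit1, passed. Their part in the difference was not tested. Relative to A young, Psmb8 and Psmb9 were lower in B young (−0.91 and −1.67, edgeR adjusted p = 0.031 and 0.0075). All 3 genes were lower in C old than in A young, with 31.9% of all genes lower. The values were −0.76 (Psmb8), −0.74 (Psmb9) and −0.49 (Psmb10, edgeR adjusted p = 0.0077, 0.015 and 0.0097). With total counts 0 of the 3 passed in that comparison, in which age and batch cannot be told apart.

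Of 29 other genes of the ubiquitin and proteasome pathway, 28 were tested. With age in batch B, 0 passed by edgeR, and 3 had an unadjusted p below 0.05, against 2597 of all 16132 genes. Without B young replicate 2, 3 were higher and 2 lower, and without replicate 1, 0 passed by edgeR and 1 had an unadjusted p below 0.05. In batch B against batch A 1 rose, Txnl1, a thioredoxin-like protein of the cap (0.60 ± 0.13, edgeR adjusted p = 0.011). That call was lost without B young replicate 2 (0.38), when 0 passed by edgeR and 5 had an unadjusted p below 0.05, and without replicate 1 there were 5 higher and 2 lower. In C old relative to B old 18 fell and 2 rose, with 32.6% of all genes lower. With total counts 11 were lower and 8 higher, against 3826 lower and 6470 higher of all 15651 genes. Among those that fell with TMM factors Sem1, a small lid subunit, had 116 and 111 CPM in B old and 39.0, 38.5 and 32.1 CPM in C old (−1.64 ± 0.08, edgeR adjusted p = 1.44e-08), and Pomp, the chaperone of the beta ring, fell by 0.79. Adrm1, a ubiquitin receptor of the cap, fell by 0.45. Rps27a, which encodes a fusion of ubiquitin with a ribosomal protein, was lower as well (log2 fold change −1.69, edgeR adjusted p = 1.93e-09). In C old relative to A young 16 pathway genes fell and 6 rose, with 31.9% of all genes lower. With total counts 8 were lower and 9 higher, with a median of −0.03, against 18.2% of all genes lower and 48% higher. Nfe2l1 had 500.4, 528, 455 and 452 CPM in A young, 485 and 404 CPM in B young, 361 and 341 CPM in B old, and 285, 302 and 301 CPM in C old. It was lower in C old than in A young (−0.65 ± 0.08, edgeR adjusted p = 9.59e-06) and than in B old (−0.25 ± 0.07, adjusted p = 0.0052), and in batch B its sign was opposite to that of most subunits (−0.34 ± 0.12, adjusted p = 0.16).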

How the data were processed

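Raw counts, as whole numbers for each Ensembl gene and library, were deposited by the authors in 1 table. The submitters' processing notes name GRCm38 and mm10. The methods of the study, which describe an oxygen comparison, give zUMIs with STAR and featureCounts, and whether these apply to the libraries used here, whether molecular identifiers were collapsed and whether strand was used is not stated in the sources used here. Libraries were grouped by the age and batch in their labels. Identifiers were matched to GENCODE M21 (28179 of 28222 genes), lengths and GC content were taken from the longest protein-coding transcript, and promoter windows were taken from RefSeq.

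Counts were tested with the edgeR 4.0.16 quasi-likelihood test in R 4.3.3 after filterByExpr with a minimum count of 5 and TMM scaling, with Benjamini-Hochberg adjustment over all genes tested and a threshold of 0.05, two-sided. The age model used the 11 libraries and included batch, and each other comparison to its own libraries. CPM used TMM-scaled totals. Standard errors were obtained from the log2 fold change and its F statistic. Alternatives were limma-trend (limma 3.58.1), DESeq2 1.42.0, total-count or RLE scaling, thinned counts, no filter or a minimum of 10 counts, offsets for length and GC content (loess, span 0.3), a replicate block, and leaving out each library. On simulated counts with 200 genes changed 2-fold, edgeR recovered 90.0% (age in batch B, 15849 genes), 89.0% (B against A, 14606 genes), 98.5% (C against B, 15265 genes) and 97.5% (C old against A young, 14744 genes). Of its calls 6.74%, 2.20%, 9.63% and 9.30% were false. With an added length trend, not fitted to these data, 89.1%, 89.7%, 95.3% and 94.9% were false. Length and GC offsets lowered these shares to 5.32%, 8.37%, 7.48% and 7.04%. Changes smaller than 2-fold were not simulated. Genes named with full values were 8 fixed ones (Psmb5, Psmb6, Psmb7, Psme1, Psme2, Psme3, Psme4, Psmd14) and the 3 members of smallest p-value per direction past the threshold in each comparison; others are named as extremes or examples after their values were seen. The members, lists and tests were chosen with earlier results of these data known. The values of some genes of the pathway list are not reported here. Counts of 3 proteasome pseudogenes in the table did not exceed 2.

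Replicate numbers did not pair the libraries: deviations of same-numbered libraries from their group means had correlations of −0.11 to 0.04.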

Additional observations from a re-analysis of the deposited data

Results flagged for a closer look

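In 53 values of the 4 A young libraries (the members, the summed classes and the core to cap ratio), 3 had 1 library far from the other 3 by Dixon's criterion, where chance flags about 1 in 20. Psmd7, a lid subunit, was 114 CPM in A young replicate 1 against a group median of 95.4 CPM. Psmf1, the inhibitor, was 45.9 CPM in A young replicate 4 against a median of 41.9 CPM. Psmg1, an assembly chaperone, was 12.9 CPM in A young replicate 2 against a median of 17.1 CPM. The difference of the B young replicates, described above, could not be examined in this way in a group of 2.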

How the results depend on the processing

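The count of members past the threshold and their median log2 fold change were recomputed under each alternative. With age in batch B the count was 0 except for 1 without the filter (Psma7, 0.45), 2 without the batch term (Psmd3 and Psmf1, both lower in old cells, with a median of −0.12 that compares batches as well), and a range of 0 to 18 when a library was left out, with medians of 0.0024 to 0.41. Between batches B and A the 5 calls ranged from 0 to 25 when a library was left out, with medians of 0.00033 to 0.40, and were 0 with the replicate block, with or without length and GC offsets. Other settings gave 4 to 7. The replicate block changed no other count by over 1.5 times. Between C and B old the count was 37 to 41 and the median −0.77 to −0.69 when a library was left out, and the median was −0.52 with total counts, −0.64 with the offsets and −0.67 with the offsets and the replicate block. Between C old and A young the count was 26 to 30 and the median −0.41 to −0.35 when a library was left out, and the median was −0.085 with total counts and −0.47 with the offsets and the replicate block.

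Among members that passed with TMM factors or under the alternative, directions turned as follows. In C against B old, Psme1 became 0.11 with the offsets and 0.10 with the offsets and block, and Psme4 became −0.10 and −0.12. In B against A young, Psmc6 became −0.08 with the offsets. In C old against A young, Psmc6 turned from 0.11 to −0.65 and Psmd1 from 0.03 to −0.19 with the offsets, and with total counts Psma1 became 0.23, Psmc1 0.28, Psmc3 0.20, Psmd4 0.08 and Psme4 0.23, all below the median of all genes (0.31). Lengths from the union of exons gave core to cap ratios of 1.67 in B old and 1.09 in C old. The causes of these changes were not tested. With 2 libraries in each batch B group, the comparisons by age and with batch A rest on few replicates.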
